A study of Homo sapiens with 6 samples.

Results

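The genes described here encode subunits of the chromatin remodeling complexes, enzymes that use ATP to slide, eject or exchange nucleosomes. They were chosen by symbol, as the SMARCA to SMARCE genes, CHD1 to CHD9, INO80 and its lettered subunits, and named partner subunits of the BAF, ISWI and NuRD complexes. The choice gave 51 of the 27788 genes in the table: 22 of the BAF and PBAF complexes, 5 of the ISWI complexes, 12 of NuRD, 6 further CHD genes, 5 of INO80, and SMARCA5-AS1, an antisense RNA gene that met the choice only by the start of its symbol. Of the 51, 48 reached a mean of 1 FPKM (fragments per kilobase of transcript, scaled to the size of the library) over all libraries and were tested.

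RNA came from BJ cells, a human foreskin fibroblast line, taken 8 days after lentivirus had delivered OCT4, SOX2, KLF4 and MYC on a pair of polycistronic constructs, labelled O2S and K2M. Cells grew in fetal bovine serum at first and later in a medium made for human embryonic stem cells. They were stained for CD13 (gene ANPEP) and CD201 (gene PROCR), and sorted into 3 groups. Double-negative cells lacked both surface proteins, CD201-only cells lacked CD13, and double-positive cells had both. Each group has 2 poly-A libraries. All groups were sorted after the same factors had been delivered, and no library of uninfected fibroblasts is among them. Whether the cells of each group carried the factors was not measured here. Whether the libraries of a group came from separate infections is not stated, and p-values then measure only the spread between these samples, which may be technical.

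In mammals, BAF complexes are built round 1 of a pair of alternative ATPases, SMARCA4 (BRG1) or SMARCA2 (BRM), and most other positions are also filled from small families of paralogs. In mouse embryonic stem cells the BAF complex holds Brg1 and the product of Smarcc1 and lacks Brm, and subunits are exchanged as cells differentiate. NuRD joins a CHD3, CHD4 or CHD5 ATPase to histone deacetylases, whereas ISWI complexes space nucleosomes and INO80 acts in transcription and replication.

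Between 11983 and 12168 genes reached 1 FPKM per library. Fragment totals were not used here. The steps between the lowest FPKM values placed the relative depth of the libraries between 0.734 and 1 of the deepest. Libraries of 1 group correlated at a Pearson's r of at least 0.992 across tested genes, and libraries of different groups at no more than 0.981. All 12 fibroblast markers examined averaged at least 1 FPKM, and their summed level was 4415 and 4422 FPKM in double-negative, 3995 and 3977 FPKM in CD201-only, and 9294 and 9188 FPKM in double-positive cells. Not every marker followed the sum: THY1 was highest in double-negative cells, at 1644.5 and 1639.3 FPKM. It was at 1182.8 and 1167.3 FPKM in CD201-only and 1382.0 and 1358.3 FPKM in double-positive cells. COL5A1, VIM and TWIST2 were lower in double-negative than in CD201-only cells, against the order of the sum. LUM averaged 1 FPKM only through double-positive cells, at 3.58 and 3.35 FPKM against 0.442 and 0.614 in double-negative and 0.264 and 0.335 in CD201-only cells. DCN was at 0.863 and 0.640 FPKM in CD201-only cells. Of 10 pluripotency markers 8 averaged at least 1 FPKM, all but DPPA4 and ZFP42. The list summed to 206.8 and 207.4 FPKM in double-negative, 133.9 and 134.7 FPKM in CD201-only, and 62.8 and 65.5 FPKM in double-positive cells. Most of each sum was TDGF1 and GDF3. UTF1 was instead highest in CD201-only cells, at 5.12 and 5.31 FPKM against 3.86 and 4.47 FPKM in double-negative cells. NANOG overlapped between these groups, at 3.75 and 4.11 FPKM in double-negative and 4.73 and 3.62 FPKM in CD201-only cells. Of 5 blood markers 2 were at 0 in every library, and the 5 summed to less than 1 FPKM in each. Of 7 keratinocyte markers 3 averaged at least 1 FPKM, and the list summed to 11.4 and 10.5 FPKM in double-negative, 19.5 and 19.2 FPKM in CD201-only, and 42.6 and 44.0 FPKM in double-positive cells. Most of the double-positive sum was KRT14, at 29.1 and 30.3 FPKM. KRT5 was instead highest in CD201-only cells, at 9.84 and 9.74 FPKM against 5.68 and 6.18 FPKM in double-positive cells. Of 5 neural markers 2 averaged at least 1 FPKM (TUBB3 and MAP2), and the list summed to 239.5 and 235.0 FPKM in double-negative, 173.9 and 176.7 FPKM in CD201-only, and 143.6 and 142.0 FPKM in double-positive cells. Of 5 trophoblast and amnion markers 3 averaged at least 1 FPKM, and the list summed to 40.6 and 38.5 FPKM in double-negative, 120.3 and 118.2 FPKM in CD201-only, and 63.0 and 61.3 FPKM in double-positive cells. Most of the CD201-only sum was HAND1, at 93.9 and 92.8 FPKM, while TFAP2A stayed between 17.98 and 19.06 FPKM in all libraries. Of 5 endothelial markers 2 averaged at least 1 FPKM (TEK and ROBO4), and the list summed to 14.4 and 15.0 FPKM in double-negative, 26.3 and 28.2 FPKM in CD201-only, and 24.3 and 26.5 FPKM in double-positive cells. Most of each sum was TEK, at 13.5 and 13.9, 24.6 and 26.4, and 18.0 and 19.9 FPKM in the same order. ROBO4 was instead highest in double-positive cells, at 5.25 and 5.54 FPKM against 1.07 and 1.12 FPKM in CD201-only cells. In sorted populations, fewer cells of a type and less RNA per cell cannot be told apart.

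With values scaled as deposited, most remodeling subunits were called higher in the groups without CD13, while a small set that included SMARCA2 and SMARCD3 was lower. Relative to double-positive cells, double-negative cells had 31 of the 48 tested subunits higher and 4 lower by limma's moderated test at an adjusted p under 0.05, beside 42.1% of all 12210 tested genes called higher and 24.5% called lower. CD201-only cells had 26 higher and 6 lower, beside 35.8% and 22.9% of all genes. Without double-negative replicate 2 the first comparison had 2 lower, and without CD201-only replicate 1, CD201-only replicate 2 or double-positive replicate 1 the second had 3 lower. Both comparisons use the same double-positive libraries. The median change of the subunits in log2(FPKM + 1) was 0.27 for double-negative and 0.19 for CD201-only cells, against 0.11 and 0.08 over all tested genes. The summed level of all 51 genes was 1184 and 1175 FPKM in double-negative, 1136 and 1130 FPKM in CD201-only, and 984 and 984 FPKM in double-positive cells.

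How many subunits were called higher depended on how libraries are scaled, and the direction of the balance did not. With libraries rescaled by the median ratio, 19 subunits were higher and 5 lower in double-negative cells, and 20 were higher and 8 lower in CD201-only cells. The same rescaling gave 31.1% of all genes higher and 30.8% lower in double-negative cells, and 28.3% higher and 27.2% lower in CD201-only cells, both against double-positive cells. The 18 subunits higher in double-negative cells under each of the 16 settings run, the reported one and 15 alternatives, were ARID1A, BAZ1B, BPTF, BRD7, CHD3, CHD4, CHD7, CHD8, GATAD2A, MTA2, MTA3, PBRM1, RBBP4, RBBP7, SMARCA4, SMARCA5, SMARCC1 and SMARCD1. SMARCA2 and SMARCD3 were the 2 subunits lower under all 16 in both comparisons.

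Genes of DNA replication moved in the same direction. All 20 of a list of S phase genes were called higher in double-negative and in CD201-only cells than in double-positive cells, beside 42.1% and 35.8% of all genes. Their median log2 changes were 0.64 and 0.69. Their summed level was 999.7 and 988.0 FPKM in double-negative, 1031 and 1041 FPKM in CD201-only, and 651.0 and 663.3 FPKM in double-positive cells. Their part in the changes of the remodeling subunits, and that of the other marker lists given above, was not tested.

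**Figure D1:**
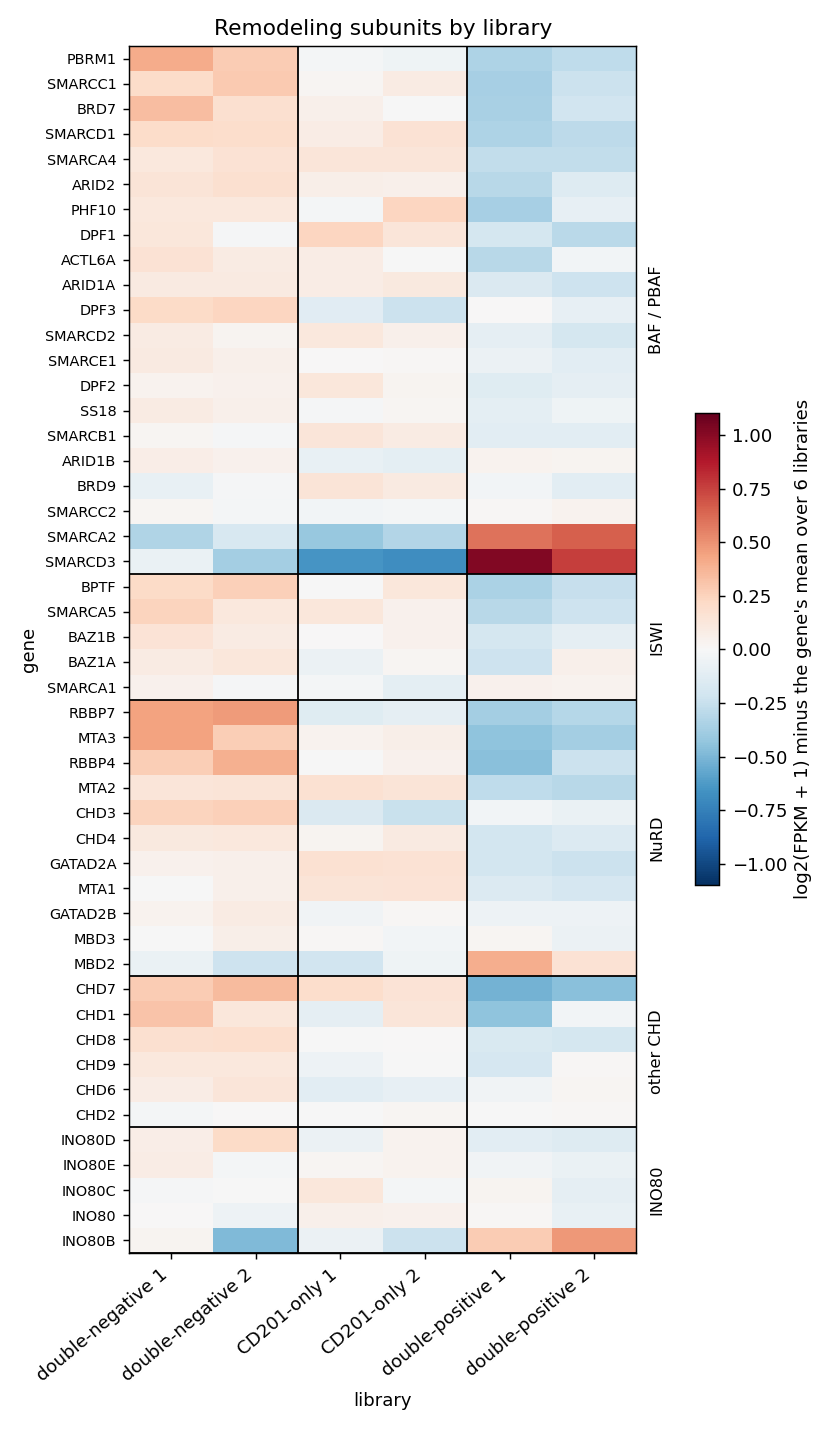
Level of each of the 48 tested subunits in each library, as log2(FPKM + 1) minus the gene's mean over the 6 libraries, with rows grouped by complex and columns by sorted group. Most rows are red in the double-negative and CD201-only columns and blue in the double-positive columns, and SMARCA2, SMARCD3, MBD2 and INO80B run the other way.

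The ATPases of the BAF complex changed in opposite directions. SMARCA4, the BRG1 ATPase, was at 50.6 and 52.1 FPKM in double-negative, 51.3 and 51.3 FPKM in CD201-only, and 38.4 and 38.5 FPKM in double-positive cells. Every library without CD13 was above both double-positive libraries, and the log2 change was 0.41 ± 0.03 (SE) in each comparison with double-positive cells, with adjusted p of 2.47e-05 for double-negative and 3.01e-05 for CD201-only cells. SMARCA2, the BRM ATPase, was at 3.75 and 4.28 FPKM in double-negative, 3.46 and 3.76 FPKM in CD201-only, and 8.04 and 8.39 FPKM in double-positive cells. Both groups without CD13 lay below both double-positive libraries and overlapped each other, and its level fell by 0.88 ± 0.08 on the log2 scale in double-negative cells (adjusted p = 6.03e-05) and by 1.00 ± 0.08 in CD201-only cells (adjusted p = 3.82e-05). In plain FPKM, SMARCA2 stood at 0.489 times the double-positive level in double-negative cells and at 0.440 times in CD201-only cells. Of the FPKM of both ATPases together, SMARCA2 made up 6.89% and 7.59% in double-negative, 6.32% and 6.83% in CD201-only, and 17.3% and 17.9% in double-positive cells.

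The SMARCD position, filled by accessory subunits that link the remodeler to transcription factors, showed the same opposition. SMARCD3 (BAF60c), known for its role in heart and skeletal muscle, was at 2.32 and 1.71 FPKM in double-negative, 1.23 and 1.18 FPKM in CD201-only, and 6.08 and 4.92 FPKM in double-positive cells. It was the subunit with the largest fall in both comparisons with double-positive cells, by 1.11 ± 0.13 in double-negative cells (adjusted p = 0.000226) and by 1.55 ± 0.13 in CD201-only cells (adjusted p = 5.02e-05). SMARCD1 (BAF60a) was at 39.3 and 38.8 FPKM in double-negative, 35.9 and 38.0 FPKM in CD201-only, and 26.6 and 27.5 FPKM in double-positive cells. It rose by 0.51 ± 0.04 (adjusted p = 2.99e-05) and 0.44 ± 0.04 (adjusted p = 8.16e-05), with no overlap between either group and the double-positive libraries. SMARCD2, the most abundant of the 3, was at 65.6 and 62.8 FPKM in double-negative, 66.8 and 64.3 FPKM in CD201-only, and 57.6 and 53.7 FPKM in double-positive cells. Its rises were smaller, 0.20 ± 0.04 in double-negative and 0.23 ± 0.04 in CD201-only cells, and the double-negative one was lost when libraries were rescaled by the median ratio.

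The sequences just upstream of these 4 genes are shown because their transcripts moved in opposite directions within a family. Each is the 160 bases before the most upstream start that RefSeq lists for the gene, on build GRCh38.p14 and read on the gene's strand, whereas the deposited values were made on hg19. Capitals mark GC boxes, the letters GGGCGG on either strand, which bind factors of the SP and KLF families. The windows are chr9:2015187-2015346 on the plus strand for SMARCA2, chr7:151277150-151277309 on the minus strand for SMARCD3, chr19:10960870-10961029 on the plus strand for SMARCA4 and chr12:50085182-50085341 on the plus strand for SMARCD1.
SMARCA2: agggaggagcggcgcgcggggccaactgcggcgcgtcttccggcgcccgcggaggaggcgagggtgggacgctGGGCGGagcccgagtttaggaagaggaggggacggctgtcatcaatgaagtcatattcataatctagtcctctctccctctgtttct
SMARCD3: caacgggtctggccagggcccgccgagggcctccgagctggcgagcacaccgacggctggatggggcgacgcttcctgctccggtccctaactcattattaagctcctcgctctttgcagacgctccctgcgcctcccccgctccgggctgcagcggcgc
SMARCA4: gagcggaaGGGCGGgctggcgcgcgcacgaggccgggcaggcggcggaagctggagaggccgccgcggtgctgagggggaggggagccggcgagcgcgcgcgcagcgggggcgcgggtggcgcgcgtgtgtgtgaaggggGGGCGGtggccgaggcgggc
SMARCD1: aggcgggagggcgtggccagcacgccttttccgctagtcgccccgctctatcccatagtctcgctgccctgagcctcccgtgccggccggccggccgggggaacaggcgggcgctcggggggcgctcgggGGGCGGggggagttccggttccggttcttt

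SMARCA4 has 2 GC boxes in its window, SMARCA2 and SMARCD1 have 1 each, and SMARCD3 has 0. All 4 windows are rich in G and C, at 63.8% for SMARCA2, 70.0% for SMARCD3, 82.5% for SMARCA4 and 74.4% for SMARCD1. RefSeq promoter windows from 250 bases before to 50 after a start were found for 41 of the 51 genes, 62 windows in all. A GC box lay in 72.6% of these and in 45.0% of the 35116 windows of all genes. The median GC content of the windows was 67.3% and 58.7% in the same order. At the starts shown above, these wider windows held 5 GC boxes for SMARCA4, 2 each for SMARCA2 and SMARCD1, and 1 for SMARCD3. The AP-1 letters TGANTCA, searched on both strands, lay in 3.23% of the subunits' windows and in 7.71% of all windows, and CCAAT lay in 35.5% and 34.6%. A match describes letters only.

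Among the core subunits of BAF, 1 member of the SMARCC pair of scaffold proteins moved and the other was not called. SMARCC1 (BAF155) was at 26.2 and 27.9 FPKM in double-negative, 23.0 and 24.2 FPKM in CD201-only, and 17.4 and 19.1 FPKM in double-positive cells. No groups overlapped, and it rose by 0.54 ± 0.06 in double-negative cells (adjusted p = 0.000159) and by 0.36 ± 0.06 in CD201-only cells (adjusted p = 0.00156). SMARCC2 (BAF170) was at 18.2 and 17.6 FPKM in double-negative, 17.5 and 17.6 FPKM in CD201-only, and 18.0 and 18.4 FPKM in double-positive cells. Its changes, -0.02 ± 0.04 and -0.05 ± 0.04, missed the threshold, and under the median-ratio rescaling it was called lower in both. SMARCB1, the core subunit lost in rhabdoid tumors, was at 94.3 and 91.9 FPKM in double-negative, 102 and 98.8 FPKM in CD201-only, and 85.8 and 85.5 FPKM in double-positive cells. It rose by 0.22 ± 0.03 in CD201-only cells, but its 0.12 ± 0.03 in double-negative cells lay near the change of the median gene. The double-negative call was lost under the median-ratio rescaling, under quantile normalization and without double-negative replicate 1.

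Subunits that tell 1 form of the complex from another differed in size of change. ARID1A, the DNA-binding subunit of canonical BAF that is often mutated in cancer, was at 20.9 and 21.0 FPKM in double-negative, 20.7 and 21.0 FPKM in CD201-only, and 17.3 and 16.5 FPKM in double-positive cells, and rose by 0.29 ± 0.04 and 0.28 ± 0.04. Its paralog ARID1B was at 10.8 and 10.6 FPKM in double-negative, 9.64 and 9.44 FPKM in CD201-only, and 10.5 and 10.5 FPKM in double-positive cells. ARID1B was called lower in CD201-only cells at an adjusted p of 0.0497, a call that was lost when any of the 6 libraries was left out.

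All 4 subunits that define PBAF were called higher in both comparisons with double-positive cells, beside 42.1% and 35.8% of all genes, but the calls of ARID2 and PHF10 did not stand in every alternative. PBRM1, the polybromo protein with several bromodomains, was at 9.62 and 8.69 FPKM in double-negative, 6.87 and 6.73 FPKM in CD201-only, and 5.31 and 5.59 FPKM in double-positive cells. The 3 groups did not overlap, and it rose by 0.65 ± 0.07 in double-negative cells (adjusted p = 0.000118) and by 0.27 ± 0.07 in CD201-only cells (adjusted p = 0.00969). BRD7, a bromodomain subunit of PBAF, was at 17.3 and 15.4 FPKM in double-negative, 14.1 and 13.4 FPKM in CD201-only, and 10.3 and 11.5 FPKM in double-positive cells, and rose by 0.54 ± 0.07 and 0.31 ± 0.07. Without CD201-only replicate 1, PBRM1 and BRD7 were not called in CD201-only cells. ARID2, the PBAF counterpart of ARID1A, rose by 0.38 ± 0.09 and 0.28 ± 0.09, and PHF10, a PHD-finger subunit, by 0.35 ± 0.11 and 0.34 ± 0.11. Correcting for transcript GC content ended the calls of both in both comparisons. Under the median-ratio rescaling PHF10 was called in neither comparison and ARID2 was not called in CD201-only cells. PHF10 was not called in double-negative cells without double-negative replicate 1, double-negative replicate 2 or double-positive replicate 1, nor in CD201-only cells without any 1 of these 3 libraries or without CD201-only replicate 2. With no filter on low values or without limma's variance trend PHF10 was also called in neither comparison. ARID2 was not called in CD201-only cells without CD201-only replicate 1, CD201-only replicate 2 or double-positive replicate 1. BRD9, the bromodomain subunit of non-canonical BAF, was at 19.8 and 20.8 FPKM in double-negative, 23.2 and 22.6 FPKM in CD201-only, and 20.6 and 19.3 FPKM in double-positive cells. It rose by 0.19 ± 0.05 in CD201-only cells, a call lost under the median-ratio rescaling and without CD201-only replicate 1 or double-positive replicate 2. In double-negative cells it was not called and its libraries overlapped the double-positive ones.

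The DPF genes encode PHD-finger subunits used in different tissues, and DPF1 and DPF3 are known from neurons and muscle. DPF2, the widely expressed member, was at 45.5 and 45.8 FPKM in double-negative, 48.4 and 45.4 FPKM in CD201-only, and 40.4 and 41.3 FPKM in double-positive cells. DPF1 was at 2.65 and 2.33 FPKM in double-negative, 2.94 and 2.68 FPKM in CD201-only, and 1.93 and 1.72 FPKM in double-positive cells. DPF3 was at 4.25 and 4.36 FPKM in double-negative, 3.16 and 2.87 FPKM in CD201-only, and 3.55 and 3.26 FPKM in double-positive cells. DPF2 and DPF1 were called higher in both comparisons with double-positive cells, with 0.16 ± 0.04 and 0.19 ± 0.04 for DPF2 and 0.30 ± 0.09 and 0.43 ± 0.09 for DPF1. DPF3 was called higher in double-negative cells (0.27 ± 0.08) and had -0.14 ± 0.08 in CD201-only cells, which was not called. The double-negative rises of all 3 were lost under the median-ratio rescaling. Of the remaining BAF subunits, SMARCE1 and, in double-negative cells, SS18 and ACTL6A were called higher, by 0.10 to 0.29. None of these 3 was called in double-negative cells under the median-ratio rescaling, and a correction for transcript GC content turned the double-negative change of SMARCE1 to -0.06. The CD201-only call of SMARCE1 was lost in 5 of the 6 refits that left out a library. ACTL6B, the neuronal counterpart of ACTL6A, was listed at 0 in every library.

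**Figure D2:**
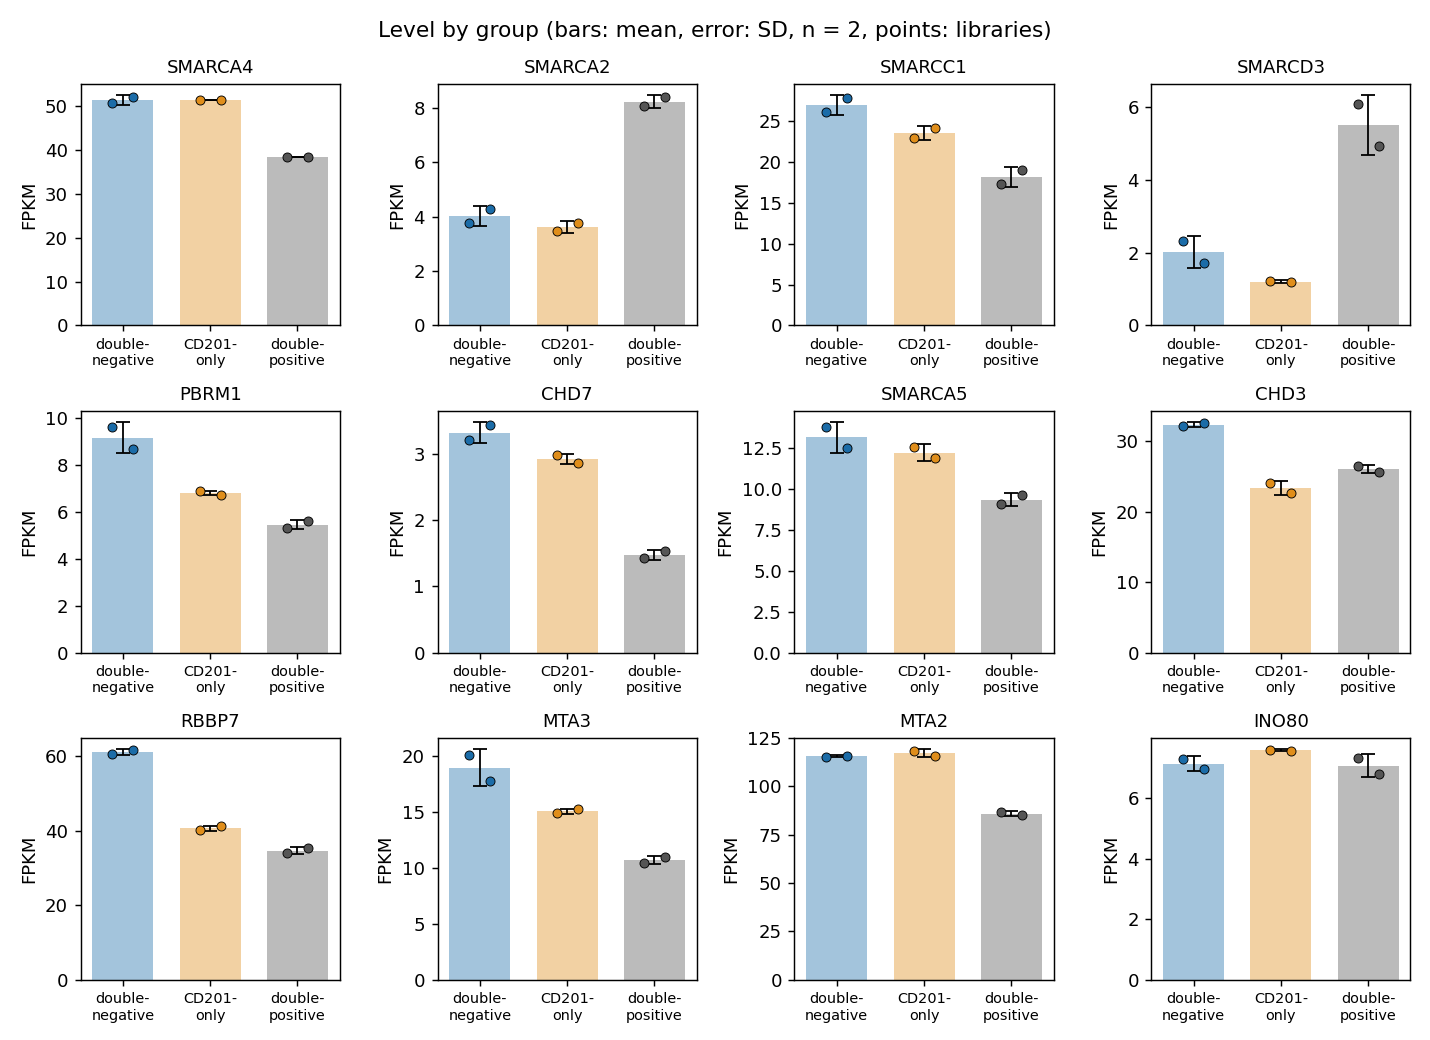
FPKM of 12 subunits in each of the 3 sorted groups, double-negative at the left, with bars for the mean, error bars for the SD of 2 libraries and points for the libraries. SMARCA2 and SMARCD3 are highest in double-positive cells, RBBP7 and PBRM1 are highest in double-negative cells, SMARCA4 and MTA2 are at like levels in both groups without CD13, and INO80 differs little.

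In the ISWI family, which spaces nucleosomes evenly, 3 of 5 subunits were higher in each comparison with double-positive cells and 0 were lower, or 60.0% higher, beside 42.1% and 35.8% of all genes. SMARCA5 (SNF2H), the ATPase of most ISWI complexes, was at 13.8 and 12.5 FPKM in double-negative, 12.6 and 11.9 FPKM in CD201-only, and 9.08 and 9.66 FPKM in double-positive cells. It rose by 0.45 ± 0.06 (adjusted p = 0.000675) and 0.35 ± 0.06 (adjusted p = 0.00267). SMARCA1 (SNF2L), the other ATPase, was at 8.65 and 8.26 FPKM in double-negative, 8.20 and 7.64 FPKM in CD201-only, and 8.65 and 8.60 FPKM in double-positive cells, and was not called in either comparison. Under the median-ratio rescaling SMARCA1 was called lower in CD201-only cells, and under the GC correction it was called lower in both, with changes of -0.26 in double-negative and -0.17 in CD201-only cells. BPTF, the large reader subunit of the NURF complex, was at 7.49 and 7.79 FPKM in double-negative, 6.31 and 6.97 FPKM in CD201-only, and 4.75 and 5.16 FPKM in double-positive cells, and rose by 0.54 ± 0.07 and 0.36 ± 0.07. BAZ1B, a partner of SMARCA5, was at 16.5 and 15.8 FPKM in double-negative, 14.8 and 15.3 FPKM in CD201-only, and 12.8 and 13.8 FPKM in double-positive cells, and rose by 0.27 ± 0.05 and 0.17 ± 0.05. Its CD201-only call was lost under that rescaling and without CD201-only replicate 1, CD201-only replicate 2 or double-positive replicate 1. BAZ1A, the partner of SMARCA5 in the ACF complex, was at 3.12 and 3.23 FPKM in double-negative, 2.70 and 2.92 FPKM in CD201-only, and 2.32 and 3.02 FPKM in double-positive cells. It was not called, and 1 double-positive library lay above both CD201-only libraries. SMARCA5-AS1 stayed between 0.310 and 0.549 FPKM and was not tested.

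In double-negative cells 8 of the 11 tested NuRD subunits were higher and 1 was lower, and in CD201-only cells 7 were higher and 2 lower, both against double-positive cells. As shares these are 72.7% and 9.09%, beside 42.1% and 24.5% of all genes, and 63.6% and 18.2%, beside 35.8% and 22.9%. RBBP7, a histone-binding WD40 protein shared with other chromatin complexes, was at 60.4 and 61.5 FPKM in double-negative, 40.1 and 41.1 FPKM in CD201-only, and 33.9 and 35.3 FPKM in double-positive cells. Its 3 groups were apart, with rises of 0.80 ± 0.03 in double-negative cells (adjusted p = 1.88e-06) and 0.22 ± 0.03 in CD201-only cells (adjusted p = 0.00115). RBBP4, its close paralog, was at 12.2 and 13.3 FPKM in double-negative, 9.83 and 10.2 FPKM in CD201-only, and 6.91 and 8.24 FPKM in double-positive cells. RBBP4 rose by 0.68 ± 0.08 and 0.37 ± 0.08, but it has processed pseudogenes, and how reads that match several genes were counted is not given in the sources used here.

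The MTA scaffold proteins of NuRD rose in different proportions. MTA3 was at 20.1 and 17.8 FPKM in double-negative, 14.9 and 15.2 FPKM in CD201-only, and 10.4 and 11.0 FPKM in double-positive cells, and rose by 0.77 ± 0.06 (adjusted p = 4.27e-05) and 0.46 ± 0.06 (adjusted p = 0.000696). MTA2, the subunit with the highest mean level of all 51 genes, was at 115 and 116 FPKM in double-negative, 119 and 116 FPKM in CD201-only, and 86.7 and 85.2 FPKM in double-positive cells. Its rises of 0.42 ± 0.03 and 0.44 ± 0.03 had adjusted p of 9.58e-06 and 9.38e-06. MTA1 was at 39.1 and 40.8 FPKM in double-negative, 43.3 and 43.5 FPKM in CD201-only, and 35.1 and 34.3 FPKM in double-positive cells, and rose by 0.20 ± 0.03 and 0.32 ± 0.03. The double-negative rise of MTA1 was not called under the median-ratio rescaling.

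The NuRD ATPases did not follow each other. CHD4, the main ATPase of NuRD in most cells, was at 67.5 and 67.7 FPKM in double-negative, 63.9 and 66.8 FPKM in CD201-only, and 54.0 and 56.1 FPKM in double-positive cells, and rose by 0.29 ± 0.03 and 0.24 ± 0.03. CHD3 was at 32.2 and 32.6 FPKM in double-negative, 24.1 and 22.7 FPKM in CD201-only, and 26.5 and 25.7 FPKM in double-positive cells. It was called higher in double-negative cells by 0.30 ± 0.04 (adjusted p = 0.000571), and in CD201-only cells it fell by 0.15 ± 0.04 (adjusted p = 0.0166). The fall was not called without CD201-only replicate 2 or double-positive replicate 1. CHD5, an ATPase known from neurons, was at 0.0731 and 0.0726 FPKM in double-negative, 0.0708 and 0.0680 FPKM in CD201-only, and 0.260 and 0.243 FPKM in double-positive cells, too low to be tested.

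The MBD subunits of NuRD, MBD2 and MBD3, which are alternatives to each other, also differed. MBD2, which binds methylated DNA, was at 2.42 and 2.06 FPKM in double-negative, 2.11 and 2.48 FPKM in CD201-only, and 3.72 and 3.01 FPKM in double-positive cells. It fell by 0.43 ± 0.11 in double-negative cells (adjusted p = 0.0125) and by 0.40 ± 0.11 in CD201-only cells (adjusted p = 0.0185). Neither call stood in every refit: the first was lost without double-negative replicate 2 or double-positive replicate 1, and the second without CD201-only replicate 1 or double-positive replicate 1. MBD3 was at 67.8 and 71.1 FPKM in double-negative, 68.4 and 66.6 FPKM in CD201-only, and 68.8 and 64.8 FPKM in double-positive cells, with overlapping groups and no call. With the correction for transcript GC content, chosen after seeing the data, MBD3 was called higher in all 3 comparisons, by 0.32 in double-negative and 0.13 in CD201-only against double-positive cells and by 0.19 in double-negative against CD201-only cells. GATAD2A, which joins the MBD protein to the ATPase, was at 33.2 and 33.3 FPKM in double-negative, 36.0 and 35.9 FPKM in CD201-only, and 27.8 and 27.1 FPKM in double-positive cells, and rose by 0.27 ± 0.03 and 0.38 ± 0.03. Its paralog GATAD2B was at 4.98 and 5.23 FPKM in double-negative, 4.70 and 4.90 FPKM in CD201-only, and 4.63 and 4.62 FPKM in double-positive cells and was not called.

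**Figure D3:**
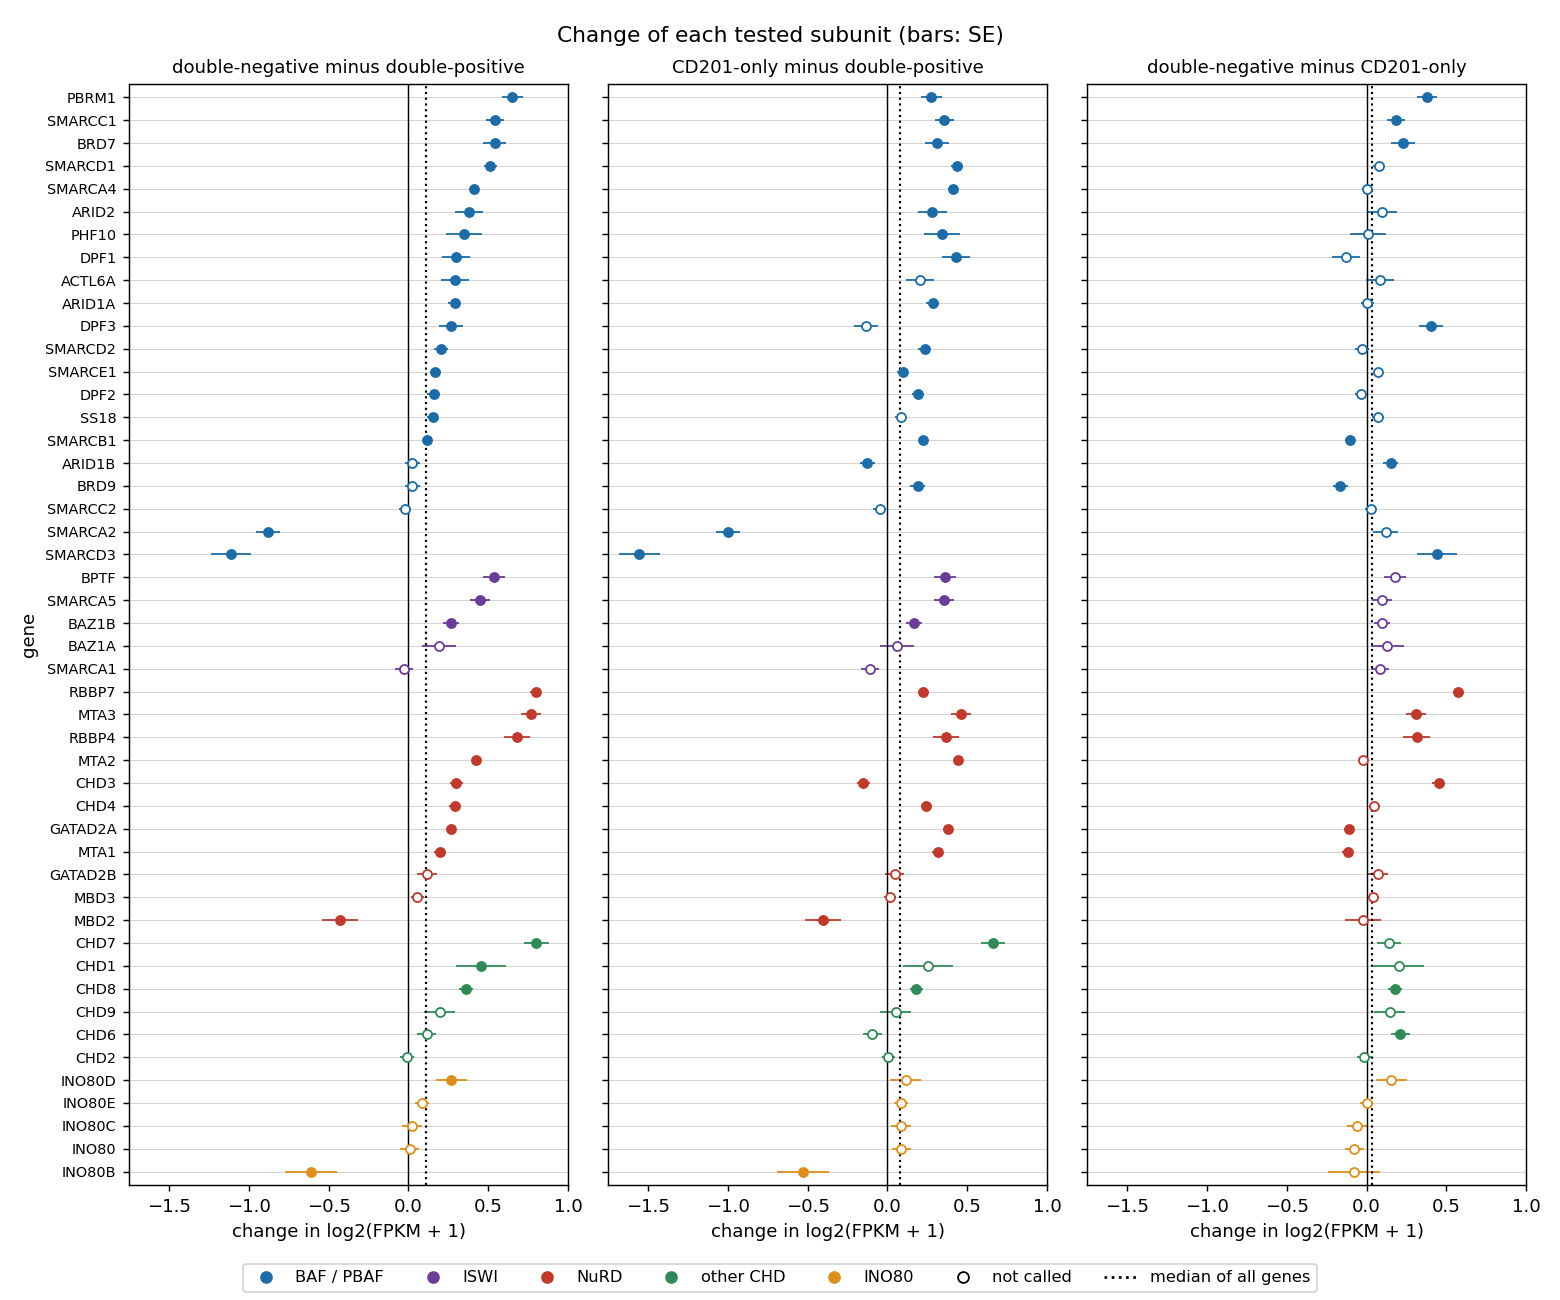
Change in log2(FPKM + 1) of each tested subunit with its SE in the 3 comparisons, coloured by complex, with filled points for called genes and a dotted line at the median change of all tested genes. SMARCD3 and SMARCA2 lie furthest to the left in both comparisons with double-positive cells, and RBBP7, CHD3 and SMARCD3 furthest to the right in double-negative minus CD201-only.

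Of the 6 CHD genes outside NuRD, 3 were higher in double-negative and 2 in CD201-only cells than in double-positive cells, and 0 were lower. As shares of the 6 these lie near the 42.1% and 35.8% of all genes called higher, and under the median-ratio rescaling 2 were higher in double-negative and 1 in CD201-only cells. In double-negative cells CHD7, the remodeler mutated in CHARGE syndrome, and RBBP7 had the largest rises of the 48 tested subunits. Without double-negative replicate 2, however, MTA3 stood above both, at 0.85 against 0.77 for CHD7. RBBP7 did not exceed 0.83 in any refit that left out a library. In CD201-only cells the rise of CHD7 was the largest. CHD7 was at 3.22 and 3.44 FPKM in double-negative, 2.98 and 2.87 FPKM in CD201-only, and 1.43 and 1.53 FPKM in double-positive cells. Both groups without CD13 lay well above the double-positive libraries, at 2.25 and 1.97 times their mean FPKM, with log2 changes of 0.80 ± 0.08 (adjusted p = 9.09e-05) and 0.66 ± 0.08 (adjusted p = 0.000292). CHD8, a repressor of beta-catenin targets, was at 15.0 and 15.1 FPKM in double-negative, 13.1 and 13.2 FPKM in CD201-only, and 11.6 and 11.4 FPKM in double-positive cells. It rose by 0.36 ± 0.04 in double-negative cells and by 0.18 ± 0.04 in CD201-only cells, and its 3 groups were apart. The CD201-only call was lost under the median-ratio rescaling.

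CHD1 reads H3K4 methylation and is needed in mouse embryonic stem cells to keep chromatin open. It was at 2.35 and 1.93 FPKM in double-negative, 1.51 and 1.96 FPKM in CD201-only, and 0.980 and 1.63 FPKM in double-positive cells. Its call in double-negative cells (0.46 ± 0.16, adjusted p = 0.0364) was lost without double-negative replicate 1, double-negative replicate 2 or double-positive replicate 1, and over all alternatives its adjusted p ran from 0.00881 to 0.283. CHD2, a relative of CHD1, was at 12.9 and 13.2 FPKM in double-negative, 13.0 and 13.3 FPKM in CD201-only, and 13.0 and 13.2 FPKM in double-positive cells, with all groups overlapping and no call. The GC correction called CHD2 lower in double-negative cells, with changes of -0.20 against double-positive cells (adjusted p = 0.00483) and -0.16 against CD201-only cells (adjusted p = 0.0247). CHD6 was at 6.36 and 6.59 FPKM in double-negative, 5.41 and 5.51 FPKM in CD201-only, and 5.75 and 6.06 FPKM in double-positive cells, and CHD9 at 1.72 and 1.72 FPKM, 1.41 and 1.51 FPKM, and 1.22 and 1.54 FPKM in the same order. Neither was called against double-positive cells.

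Of the 5 INO80 genes, 1 was higher and 1 lower in double-negative cells, and 0 were higher and 1 lower in CD201-only cells, beside 42.1% and 24.5%, and 35.8% and 22.9%, of all genes. The ATPase INO80 was at 7.31 and 6.96 FPKM in double-negative, 7.60 and 7.56 FPKM in CD201-only, and 7.34 and 6.82 FPKM in double-positive cells and was called in none of the 3 comparisons, nor were INO80C and INO80E. With the GC correction INO80E was called higher against double-positive cells, by 0.30 in double-negative and 0.17 in CD201-only cells. INO80D was called higher in double-negative cells by 0.27 ± 0.10 at an adjusted p of 0.0412, and 5 of the 6 refits that left out a library lost the call. The call was also lost under the median-ratio rescaling, quantile normalization and the GC correction, and with only the compared libraries. INO80D was at 1.24 and 1.47 FPKM in double-negative, 1.04 and 1.19 FPKM in CD201-only, and 0.963 and 0.937 FPKM in double-positive cells. It therefore passed the filter of 1 FPKM only through the groups without CD13. INO80B was at 7.53 and 4.99 FPKM in double-negative, 7.00 and 6.11 FPKM in CD201-only, and 9.15 and 10.7 FPKM in double-positive cells. It fell by 0.61 ± 0.16 in double-negative cells (adjusted p = 0.0132) and by 0.53 ± 0.16 in CD201-only cells (adjusted p = 0.0264). INO80B shares exons with the read-through gene INO80B-WBP1, so its value is uncertain. The sum of both genes was 15.6 and 16.6 FPKM in double-negative, 18.1 and 18.0 FPKM in CD201-only, and 25.5 and 21.4 FPKM in double-positive cells, again with the double-positive libraries highest. The fall of INO80B was not called in double-negative cells without double-negative replicate 2 or double-positive replicate 2, and not in CD201-only cells without CD201-only replicate 1, CD201-only replicate 2 or double-positive replicate 2.

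The 2 groups without CD13 differed from each other in fewer subunits. Double-negative cells had 12 of the 48 higher and 4 lower than CD201-only cells, beside 21.5% of all tested genes called higher and 16.5% called lower, so the subunits' shares were near or below those of all genes. Leaving out 1 of the 4 libraries compared lowered these counts: to 4 higher and 0 lower without double-negative replicate 1, 7 and 0 without double-negative replicate 2, 4 and 0 without CD201-only replicate 1, and 5 and 1 without CD201-only replicate 2. The 4 that were called higher under all 16 settings were RBBP7 (0.57 ± 0.03, adjusted p = 2.80e-05), CHD3 (0.45 ± 0.04, adjusted p = 0.000207), DPF3 (0.40 ± 0.08, adjusted p = 0.00571) and PBRM1 (0.38 ± 0.07, adjusted p = 0.00398). SMARCD3 was also higher, by 0.44 ± 0.13 (adjusted p = 0.0318), at levels of 2.32 and 1.71 FPKM in double-negative and 1.23 and 1.18 FPKM in CD201-only cells, but it was not called without double-negative replicate 1, CD201-only replicate 1 or CD201-only replicate 2. MTA3, RBBP4, BRD7, CHD6, SMARCC1, CHD8 and ARID1B made up the rest. BRD9 fell by 0.17 ± 0.05, MTA1 by 0.12 ± 0.03, GATAD2A by 0.11 ± 0.03 and SMARCB1 by 0.11 ± 0.03. None of these 4 falls was called when limma's variance trend was left out, and the GC correction turned the change of MTA1 to 0.00095. SMARCA4 was at 50.6 and 52.1 FPKM in double-negative and 51.3 and 51.3 FPKM in CD201-only cells, with a change of 0.00 ± 0.03.

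Over the 3 groups at once, limma's F test called 36 of the 48 subunits, beside 73.0% of all tested genes, a share close to that of the subunits. By group mean, 27 subunits stood in the order double-negative, CD201-only, double-positive, and 10 had CD201-only cells first and double-positive cells last. SMARCA1, SMARCA2, SMARCC2 and SMARCD3 had double-positive cells first and CD201-only cells last. Some of these orders rest on differences that were not called: 10 subunits were called in none of the 3 comparisons. They were BAZ1A, CHD2, CHD9, GATAD2B, INO80, INO80C, INO80E, MBD3, SMARCA1 and SMARCC2. The lack of a call does not mean that libraries overlapped, and those of GATAD2B were apart in all 3 comparisons.

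The ratio of paralogs within a library does not change when the whole library is multiplied by a single factor. A correction that acts on each gene, such as that for transcript GC content, can change it. The ratio of SMARCA4 to SMARCA2, in FPKM, was 13.5 and 12.2 in double-negative, 14.8 and 13.6 in CD201-only, and 4.77 and 4.59 in double-positive cells. That of SMARCD1 to SMARCD3 was 17.0 and 22.8 in double-negative, 29.2 and 32.1 in CD201-only, and 4.37 and 5.60 in double-positive cells. The double-positive libraries were lowest by a wide margin in both ratios, and the CD201-only libraries were highest in both, though only just in the first.

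Smaller shifts were seen in other pairs, where the direction depends on which gene is put first. The ratio of SMARCC1 to SMARCC2 was 1.44 and 1.58 in double-negative, 1.32 and 1.38 in CD201-only, and 0.965 and 1.04 in double-positive cells. That of SMARCA5 to SMARCA1 was 1.60 and 1.52 in double-negative, 1.54 and 1.56 in CD201-only, and 1.05 and 1.12 in double-positive cells. That of CHD7 to CHD8 was 0.215 and 0.227 in double-negative, 0.227 and 0.217 in CD201-only, and 0.123 and 0.135 in double-positive cells. In each of these 3, every library without CD13 was above both double-positive libraries. Such separation was usual: of 26 paralog ratios computed, 21 had groups apart in each comparison with double-positive cells. Between the groups without CD13, 17 were apart. The ratio of CHD4 to CHD3 set CD201-only cells apart, at 2.10 and 2.08 in double-negative, 2.65 and 2.94 in CD201-only, and 2.03 and 2.18 in double-positive cells. The ratio of BAZ1A to BAZ1B overlapped among all groups, at 0.189 and 0.204, 0.182 and 0.191, and 0.180 and 0.220 in the order double-negative, CD201-only, double-positive. With 2 libraries against 2, an exact permutation test of a ratio cannot go below a p of 0.333 (two-sided), so the ratios are given without a test.

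**Figure D4:**
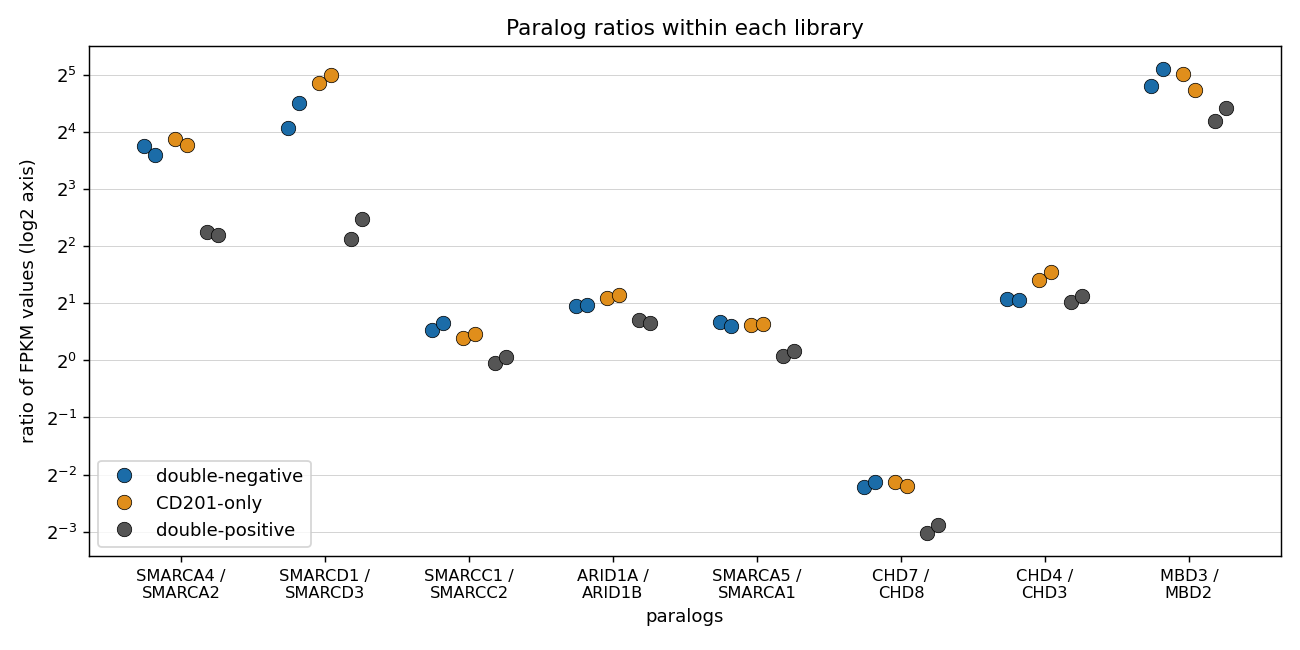
Ratio of the FPKM values of 8 paralog pairs within each library, on a log2 axis, with a point for each of the 2 libraries per sorted group, double-negative at the left of each set. The double-positive points lie below the others for SMARCA4 to SMARCA2 (4.77 and 4.59) and SMARCD1 to SMARCD3 (4.37 and 5.60), and the CD201-only points lie above the others for CHD4 to CHD3 (2.65 and 2.94).

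Further genes of chromatin remodeling outside the chosen families were set beside the subunits as a list of 45, of which 42 were tested. Against double-positive cells, 26 were higher and 3 lower in double-negative cells, or 61.9% and 7.14% beside 42.1% and 24.5% of all genes. In CD201-only cells 20 were higher and 2 lower, or 47.6% and 4.76% beside 35.8% and 22.9%. The count higher in double-negative cells was 16 under the median-ratio rescaling, where 31.1% of all genes were higher, and 18 without double-negative replicate 2. The count lower in CD201-only cells was 1 without CD201-only replicate 2 or double-positive replicate 1. The largest rises in double-negative cells were of RAD54L, a recombination ATPase (0.64 ± 0.06), YEATS4, a histone reader of the TIP60 and SRCAP complexes (0.54 ± 0.05), and HELLS, a remodeler needed for DNA methylation (0.53 ± 0.11). The same 3 genes had the largest rises in CD201-only cells, at 0.69 ± 0.06, 0.57 ± 0.05 and 0.57 ± 0.11. ZNHIT1, a subunit of the SRCAP complex, fell by 0.32 ± 0.06 in double-negative and by 0.22 ± 0.06 in CD201-only cells. ERCC6, the repair ATPase mutated in Cockayne syndrome, and BCL7B, a BAF subunit, fell in double-negative cells by 0.26 ± 0.08 and 0.23 ± 0.04, and CDK2AP1, known to associate with NuRD, fell in CD201-only cells by 0.11 ± 0.03. ERCC6 was not called with no filter on low values, or without double-negative replicate 1, double-positive replicate 1 or double-positive replicate 2. ZNHIT1 was not called in CD201-only cells without CD201-only replicate 2 or double-positive replicate 1, HELLS and BCL7B were not called in double-negative cells under the GC correction, and CDK2AP1 was not called without the variance trend.

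Between the groups without CD13, 5 genes of that list were higher and 3 lower in double-negative cells, or 11.9% and 7.14%, both below the 21.5% and 16.5% of all genes. Without double-negative replicate 1 the counts were 1 and 1, without double-negative replicate 2 or CD201-only replicate 1 they were 2 and 2, and without CD201-only replicate 2 they were 2 and 3. HLTF, a helicase-like DNA translocase, rose by 0.28 ± 0.08, HDAC2, a deacetylase of NuRD, by 0.27 ± 0.04, and RUVBL1, an ATPase of the INO80 and TIP60 complexes, by 0.15 ± 0.03. BCL7B fell by 0.22 ± 0.04, and RUVBL2, which forms a ring with RUVBL1, by 0.17 ± 0.03. NFRKB, an INO80 subunit, also fell by 0.17 ± 0.04. Of these 6 calls none was kept in every alternative: that of HDAC2 was lost under the GC correction, as were those of HLTF and RUVBL2, and those of HLTF, RUVBL1, BCL7B and NFRKB were lost without double-negative replicate 1. HLTF and RUVBL1 were also not called without double-negative replicate 2, nor HLTF without CD201-only replicate 2, nor RUVBL1 without CD201-only replicate 1. NFRKB was not called without double-negative replicate 2 or CD201-only replicate 1. HDAC2 was at 23.8 and 24.7 FPKM in double-negative, 20.5 and 19.5 FPKM in CD201-only, and 17.3 and 17.1 FPKM in double-positive cells, the same order of groups as RBBP7 and RBBP4.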

How the data were processed

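Poly-A RNA was sequenced from 6 libraries of sorted BJ cells, 2 in each of 3 groups taken from the labels. The authors deposited 1 table of FPKM values, made with STAR and Cuffnorm on hg19/GRCh37 per the submitters' processing notes. Their versions, the annotation and the scaling option of Cuffnorm are not given in the sources used. All 6 columns were assigned and 0 were left over.

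A pseudocount of 1 was added to each deposited FPKM value before taking log2, and the 12210 genes averaging at least 1 FPKM were tested. This scale understates fold changes of low genes. All libraries entered 1 limma fit (3.58.1, R 4.3.3) with a variance trend and 3 residual degrees of freedom, and p-values were adjusted by Benjamini-Hochberg over all tested genes. Calls were made at an adjusted p below 0.05. The method was tested on simulated data.

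Full values were given for the ATPases, for paralog groups with at least 2 members at a mean of 1 FPKM, and for the 4 largest called rises and falls of each comparison whose groups did not overlap. Other remodeling genes were named by up to 3 largest called changes in each direction. The genes and lists were chosen with earlier results of these data known. Alternatives were other scalings, a pseudocount of 0.1, no filter, other limma settings, only the compared libraries, a replicate block and each library left out, and a correction for transcript GC content was chosen after seeing the data. Promoter sequences are from RefSeq (GRCh38.p14). Tables were handled in pandas 2.3.3 and numpy 2.4.6 under Python 3.11.15, and plots made with matplotlib 3.10.9.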

Additional observations from a re-analysis of the deposited data

How the results depend on the processing

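Of the counts against double-positive cells, that of subunits higher in double-negative cells was 19 under the median-ratio rescaling, against 31 as deposited, and the other settings that kept all libraries gave 25 to 31 higher. With each library left out in turn, 24 to 30 were higher and 2 to 4 lower in double-negative cells, and 20 to 26 were higher and 3 to 5 lower in CD201-only cells. The comparison of double-negative with CD201-only cells was less stable, with 4 to 12 higher and 0 to 4 lower when a library was left out, 6 higher and 2 lower with the GC correction, and 0 lower without the variance trend. With the GC correction the log2 change of SMARCE1 in double-negative against double-positive cells turned to -0.0568, and that of MTA1 in double-negative against CD201-only cells to 0.00095; in both, the correction itself removes the part of the change that follows transcript GC content.

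Whether libraries with the same replicate number were prepared together is not stated. The difference between replicates 1 and 2 correlated at 0.104, -0.242 and 0.0938 between pairs of groups, across 6147 genes. Such values cannot settle whether the libraries were paired, since a small shared effect could leave weak correlations. With the replicate number as a block, 31 subunits were higher and 4 lower in double-negative and 26 higher and 5 lower in CD201-only cells, both against double-positive cells, and 10 were higher and 4 lower in double-negative than in CD201-only cells. The block ended the calls of ARID1B in CD201-only against double-positive cells and of ARID1B and BRD7 in double-negative against CD201-only cells, and no other call of a subunit. Precision is limited by 2 libraries per group and by FPKM values without counts, and a part of each change depends on how libraries are scaled, an option that is not given. Transcript GC content was known for all 48 tested subunits, with a median of 49.3% against 50.7% over the tested genes that had a value.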
